A study of Mus musculus with 8 samples.

Results

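The genes described here are 48 genes of mitosis and chromosome segregation, chosen by name for their roles as mitotic kinases, checkpoint proteins, kinetochore proteins, spindle motors and condensin subunits. Each gene was read from the probe set that was named for it alone, was not listed at 0, and had the highest mean over the 8 arrays. This gave values for 47 of the 48, among 10720 genes measured in all. Ccnb1, cyclin B1, had no probe set named for it alone and was not analysed here. No group mean of the 47 genes was below 6.43 on the log2 scale.

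LSK cells are bone marrow cells that lack the surface antigens of mature lineages and carry Sca-1 and Kit, and they hold the blood stem cells and multipotent progenitors. Total RNA of LSK cells from 4 normal mice, labelled WT, and from 4 mice with a conditional Msi2 knockout (KO) was hybridised to Affymetrix mouse arrays, 1 array per mouse. The product of Msi2 is Musashi-2, which binds RNA. The Cre driver, the way deletion was induced and the age of the mice are not given in the sources used here. The question the design poses is how gene expression in LSK cells differs when Msi2 is deleted.

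A cell enters mitosis when cyclin-dependent kinase 1, bound to cyclin A or B, is switched on by Cdc25 phosphatases and supported by the Aurora and Polo-like kinases. Condensin then compacts the chromosomes, kinetochores built on centromeres attach them to the spindle, and the spindle checkpoint holds back the anaphase-promoting complex until all are attached. Messages of these genes accumulate late in the cell cycle, so their level in a cell population is widely read as a sign of how many cells divide. Blood stem cells are mostly quiescent, while the multipotent progenitors of the same sorted fraction cycle. In RNA of bulk cells, fewer dividing cells and less RNA per dividing cell cannot be told apart.

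Msi2 itself, averaged over its 4 bright probe sets, reached 72.6%, 63.4%, 15.1% and 40.5% of its control level on KO 1 to KO 4, and its groups did not overlap (two-sided exact permutation p 0.0286 for its brightest probe set). The array KO 3 lay apart from the others on the first principal component, at 50.5 against -26.7 to 11. Xist, which coats the inactive X chromosome, had low signals on control 1, KO 1 and KO 2 (4.79 to 5.55) and high on the other 5 arrays (11.92 to 12.51). Values were available for 7 markers of the sorted cells, Kit among them at 8.39 to 9.19, and their mean deviation from control was -1.36 on KO 3 and -0.15 to 0.12 on the other arrays, while Ly6a, the gene of Sca-1, had no probe set of its own. Of the mature lineage antigens, Cd3e, Itgam, Cd4 and Cd8a were listed at 0, and Cd5 read 3.73 to 4.32. Ptprc, whose product CD45 is found on most blood cells and in one form on B cells, read 9.33 to 10.43. The 10 measured erythroid markers were higher in KO by a mean of 1.07, from 0.13 (Tfrc) to 1.61 (Klf1). Of these 10, as of all genes, 0 passed limma (lowest adjusted p 0.287). Their array means were 0.30, 0.76, 2.16 and 1.06 above the control mean on KO 1 to KO 4 and -0.53 to 0.64 in the controls. The erythroid genes Alas2 and Hba-a1 were listed at 0. The 5 mast cell and basophil markers had array means of 0.30, 1.16, 1.75 and 1.67 on KO 1 to KO 4 and -0.82 to 0.54 in the controls. Of them 4 were higher in KO and 1, Mcpt8, was lower (-0.50). The part of these differences between arrays in the results below was not tested, except that Xist level entered some fits. Values without an array or within arrays of like Xist level are descriptions, and they do not test the marker differences.

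Mitosis genes differed little between KO and control LSK cells, and in no common direction. Of the 47 genes, 25 were higher and 22 lower in KO, with a median log2 difference of 0.03. Over all genes 50.4% were higher and the median was 0.002. 0 of the 47 passed the threshold of 0.05 on the adjusted p of limma, against a background of 0%, since 0 of all 10720 genes passed. Msi2, the deleted gene, did not pass either (limma adjusted p 0.442), so failing this threshold does not show that a gene was unchanged. At an unadjusted p under 0.05, limma gave 1 of the 47 (2.13%), Cenpa, against 11.4% of all genes (5.74% higher and 5.66% lower). The arrays of both groups were fully apart for 3 of the 47 (6.38%), against 7.11% of all genes. Cenpa lay above in KO, as did 3.63% of all genes, and Ndc80 and Mki67 lay below, as did 3.48%. The share that differed was therefore no larger than the background.

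**Figure D1:**
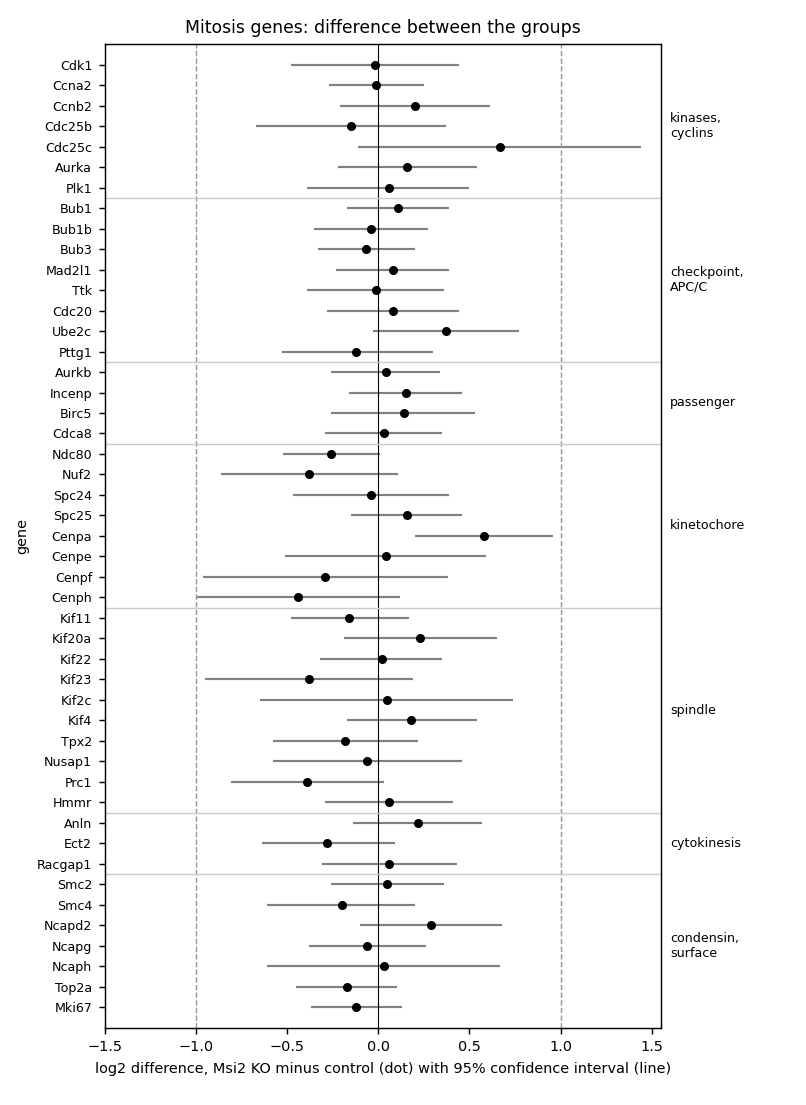
Log2 difference (Msi2 KO minus control, horizontal axis) of each of the 47 measured mitosis genes as a dot, with its 95% confidence interval from limma as a line; dashed lines mark 1 log2 unit either way and thin grey lines separate the roles. Dots lie from -0.44 (Cenph) to 0.67 (Cdc25c), and 45 of the 47 intervals lie inside the dashed lines.

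The confidence intervals give the range of differences that these 8 arrays leave for each gene. For 45 of the 47 genes (95.7%) the 95% confidence interval lay inside 1 log2 unit either way, that is a 2-fold difference, against 83.5% of all genes. The exceptions were Cdc25c and Cenph. For 30 genes (63.8%) the interval lay inside a 1.5-fold difference, against 42.1% of all genes. The median half-width was 0.38, compared with 0.436 over all genes. Only 2 genes (4.26%), Cdc25c and Cenpa, differed by more than 0.5 on the log2 scale, against 11.6% of all genes.

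The promoters of these genes share letters that the choice of genes did not use. Many mitotic promoters are known to carry a CHR element (cell cycle genes homology region), bound by the DREAM complex in resting cells and by MYBL2 and FOXM1 complexes in dividing cells, together with CCAAT boxes bound by NF-Y. RefSeq promoter windows of 300 bases on GRCm38.p6 (250 before to 50 after the annotated start) were found for 40 of the 48 genes, with 43 windows in all. CHR-type elements were searched as TTTGAA on both strands, together with the related form TTCGAA. The latter reads the same on both strands. NF-Y boxes were searched as CCAAT on both strands, and such a box can share its end base with a CHR-type element. A CHR-type element stood in 34 of the 43 windows (79.1%), compared with 19.2% of all 32851 windows of this length and 14.2% of the 11170 windows of genes measured on these arrays. Within 50 bases of the start it was in 30 windows (69.8%), compared with 5.31% of all windows. CCAAT was in 34 windows (79.1%), compared with 37.4%, and 22 windows (51.2%) held more than 1, compared with 11.7%.

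6 stretches are shown as examples that hold both kinds of element. They belong to Cenpa, Mki67 and Ube2c and to 3 central regulators of mitosis (Ccnb2, Cdc20, Cdk1), which differed by 0.20, 0.08 and -0.02. Ndc80, whose groups were fully apart like those of Cenpa and Mki67, is not shown. Its window held 1 CHR-type element, beginning at base 30 after the start, and no CCAAT box. Capitals mark the CHR-type elements (TTTGAA or its reverse complement TTCAAA) and the CCAAT boxes (CCAAT or ATTGG), 5' to 3' along the gene's own strand. Each runs from 110 bases before to 25 after the start, except that of Mki67, which runs from 200 to 76 bases before it.
Cenpa (chr5:30666776-30666910, plus strand): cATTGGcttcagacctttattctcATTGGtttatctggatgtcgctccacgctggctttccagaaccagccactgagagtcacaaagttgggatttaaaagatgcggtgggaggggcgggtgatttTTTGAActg
Mki67 (chr7:135716455-135716579, minus strand): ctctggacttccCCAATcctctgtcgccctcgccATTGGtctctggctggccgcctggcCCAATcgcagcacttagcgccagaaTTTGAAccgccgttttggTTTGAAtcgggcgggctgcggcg
Ube2c (chr2:164769819-164769953, plus strand): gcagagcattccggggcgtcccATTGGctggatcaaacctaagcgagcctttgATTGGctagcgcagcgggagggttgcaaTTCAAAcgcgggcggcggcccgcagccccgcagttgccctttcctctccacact
Ccnb2 (chr9:70421530-70421664, minus strand): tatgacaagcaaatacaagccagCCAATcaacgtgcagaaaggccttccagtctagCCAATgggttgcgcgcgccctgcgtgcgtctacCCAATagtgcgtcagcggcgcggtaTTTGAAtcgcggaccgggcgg
Cdc20 (chr4:118437319-118437453, minus strand): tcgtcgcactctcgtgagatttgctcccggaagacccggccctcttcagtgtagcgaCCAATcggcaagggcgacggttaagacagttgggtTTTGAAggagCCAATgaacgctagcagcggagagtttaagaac
Cdk1 (chr10:69352888-69353022, minus strand): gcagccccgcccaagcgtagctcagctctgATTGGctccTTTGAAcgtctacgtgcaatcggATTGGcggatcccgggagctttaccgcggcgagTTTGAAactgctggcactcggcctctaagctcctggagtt

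In Ccnb2, 3 CCAAT boxes with first bases 87, 54 and 21 bases before the start lead up to a TTTGAA that begins at base 5 after it. In Cenpa the TTTGAA begins at base 17 after the start. In Mki67 both copies lie farther upstream, with first bases 116 and 98 bases before the start. Neither CHR-type nor CCAAT letters were found in the windows of 6 genes (Birc5, Mad2l1, Ncaph, Nuf2, Nusap1 and Pttg1), which says only that these letters are not in these windows.

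**Figure D2:**
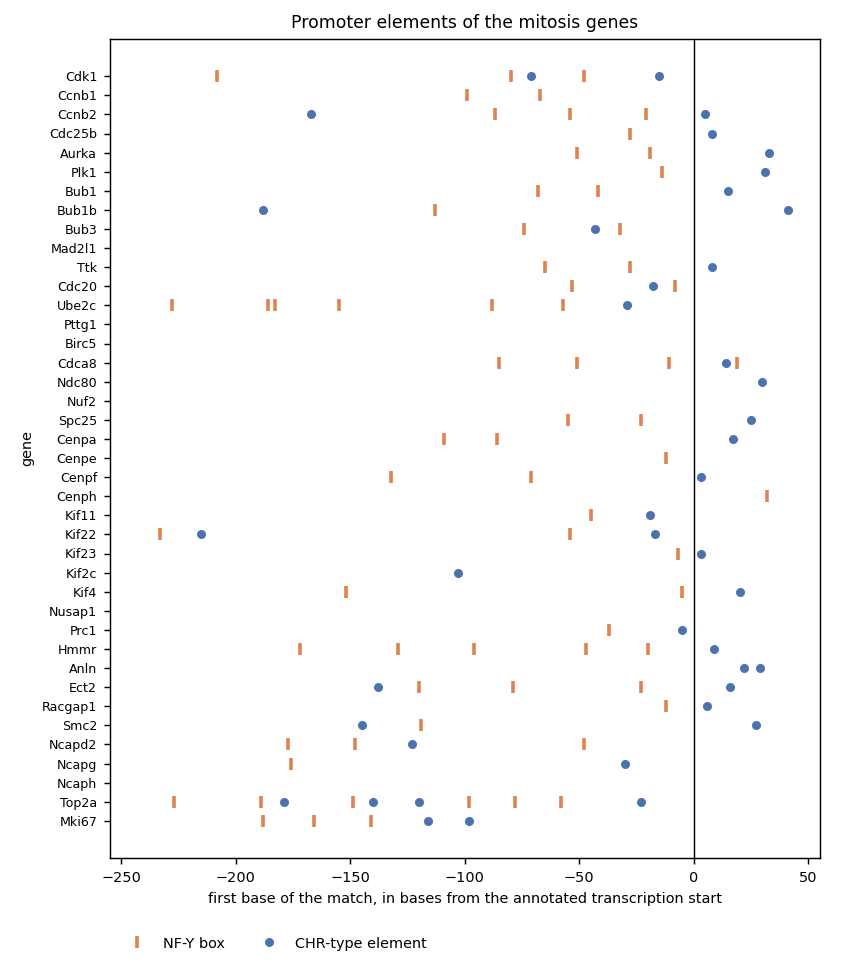
Position of CHR-type elements (blue dots) and NF-Y boxes (orange bars) in the promoter window of 40 mitosis genes; the horizontal axis gives the first base of each match in bases from the annotated transcription start (vertical line), and the first window is drawn for a gene with several. Most blue dots lie within 50 bases of the start, and NF-Y boxes lie mainly upstream of it.

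The 28 measured genes with a CHR-type element within 50 bases of the start had 15 higher and 13 lower in KO (median 0.02, from -0.39 to 0.58). The 11 genes with a promoter in the table and no such element there had 6 higher and 5 lower (median 0.03, from -0.44 to 0.29). With the element, the mean deviation from control was -0.13, -0.05, -0.02 and 0.21 on KO 1 to KO 4. Without it the values were -0.32, -0.06, 0.01 and 0.19. The sets were thus apart on KO 1 and close on the other KO arrays, and control 1 read -0.04 with the element and 0.11 without it. These values are descriptions, and no difference between both sets was tested.

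The kinases, cyclins and phosphatases that drive entry into mitosis had 4 of 7 measured genes higher and 3 lower, with a median of 0.06. Cdk1, the kinase at the centre of mitotic entry, read 9.51, 9.42, 9.07 and 9.31 on control 1 to control 4 and 9.22, 8.82, 9.49 and 9.72 on KO 1 to KO 4. Its KO arrays thus held both the highest and the lowest value, and the means were 9.33 ± 0.19 and 9.31 ± 0.39 (SD, n = 4 each). Ccna2, cyclin A2, was nearly flat at 10.93 ± 0.09 in controls and 10.92 ± 0.03 in KO, with an interval of the difference from -0.27 to 0.25. Ccnb2, cyclin B2, went from 9.30 ± 0.32 to 9.50 ± 0.19, and Aurka, the centrosomal Aurora kinase, from 8.37 to 8.53. Plk1, the Polo-like kinase, differed by 0.06 ± 0.20 (SE).

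The phosphatase Cdc25c, an activator of Cdk1, had the largest difference of the 47 genes, 0.67 ± 0.35 (SE), and a wide interval from -0.11 to 1.44. It read 8.64, 7.44, 7.69 and 7.61 on control 1 to control 4 and 8.86, 9.19, 7.90 and 8.11 on KO 1 to KO 4. Control 1, KO 1 and KO 2 were the 3 highest arrays, and they are also the 3 with low Xist. The groups overlapped, and neither test passed (limma adjusted p 0.496; two-sided exact permutation p 0.171). Its probe set 1456077_x_at carries the suffix of probes that can match other transcripts, and the second kept probe set of Cdc25c, 1422252_a_at, gave -0.20. Cdc25b, the phosphatase linked to early activation at centrosomes, differed by -0.15 with an interval from -0.67 to 0.37.

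The spindle checkpoint and anaphase-promoting complex genes were split evenly, 4 higher and 4 lower (median 0.03). The checkpoint proteins Bub1 (0.11), Bub1b (-0.04), Bub3 (-0.07) and Mad2l1 (0.08) and the checkpoint kinase Ttk (-0.01) had intervals between -0.39 and 0.39. Cdc20, the activator of the anaphase-promoting complex, differed by 0.08 ± 0.16 (SE). Pttg1, securin, which holds separase inactive until anaphase, differed by -0.12 ± 0.18 (SE).

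Ube2c, the ubiquitin-conjugating enzyme of the anaphase-promoting complex, had the largest difference of this group. It read 11.09, 11.23, 11.10 and 10.95 on control 1 to control 4 and 11.40, 11.62, 11.04 and 11.81 on KO 1 to KO 4. Of the KO arrays 3 lay above every control, and KO 3 lay among the controls. The difference was 0.37 ± 0.18 (SE), or 1.29-fold, and missed the limma threshold (adjusted p 0.465; two-sided exact permutation p 0.114). Without KO 3 it was 0.52.

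The 4 genes of the chromosomal passenger complex, which corrects faulty attachments and guides cytokinesis, differed little: the kinase Aurkb by 0.04, the scaffold Incenp by 0.15, survivin (Birc5) by 0.14 and borealin (Cdca8) by 0.03. All 4 point estimates were above 0, and all 4 intervals included 0, the widest reaching from -0.26 to 0.53. The common sign depended on the probe sets. With those that can match other transcripts left out, Incenp was at -0.03, Cdca8 at -0.34 and Birc5 at 0.14, and Aurkb had none left. Birc5 was highest on KO 4 (10.29), with the controls at 9.55 to 9.92.

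The kinetochore and centromere genes held the largest spread of differences and the gene with the smallest p. Of the 8 genes, 3 were higher and 5 lower, with a median of -0.15. Cenpa, the histone H3 variant that marks the centromere, read 7.28, 7.67, 7.54 and 7.43 on control 1 to control 4 and 7.70, 7.99, 8.30 and 8.27 on KO 1 to KO 4. Every KO array lay above every control, by a narrow margin on KO 1. The means were 7.48 ± 0.17 and 8.06 ± 0.28 (SD, n = 4 each), a 1.5-fold difference (log2 0.58, interval 0.20 to 0.96). Cenpa had an unadjusted p of 0.00725 and an adjusted p of 0.299 in limma, so it did not pass, and its two-sided exact permutation p was 0.0286, the smallest that 4 arrays against 4 can give. The difference was 0.50 without KO 3 and 0.74 within the arrays of high Xist. The other probe sets of Cenpa gave smaller differences, 0.29 for 1444416_at and 0.05 for 1441864_x_at.

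Ndc80, the microtubule-binding core of the outer kinetochore, went the other way. It read 9.21, 9.36, 9.24 and 9.21 on control 1 to control 4 and 9.05, 8.88, 8.96 and 9.11 on KO 1 to KO 4. Every KO array lay below every control, and the difference was -0.26 with an interval from -0.52 to 0.01 (limma adjusted p 0.451; two-sided exact permutation p 0.0286). The 3 partners of Ndc80 in the same complex did not share one sign. Nuf2 was at -0.38 ± 0.22 (SE), Spc24 at -0.04 ± 0.19 and Spc25 at 0.16 ± 0.14.

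Nuf2 and Cenph were low on the same 2 KO arrays. Cenph, a subunit of the inner kinetochore network, read 9.57, 9.47, 9.47 and 9.30 on control 1 to control 4 and 8.74, 8.37, 9.46 and 9.47 on KO 1 to KO 4. KO 1 and KO 2 were below every control, while KO 3 and KO 4 lay at the control level. Nuf2 read 9.20, 8.42, 8.58 and 8.43 in controls and 8.01, 8.07, 8.58 and 8.47 in KO, with the same 2 arrays lowest. Neither passed limma (adjusted p 0.529 for Cenph and 0.540 for Nuf2). Cenpf, a large protein of the outer kinetochore, was at -0.29 ± 0.30 (SE) with KO 2 (9.04) and control 4 (9.05) lowest, and Cenpe, a kinetochore motor, at 0.04 ± 0.25.

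**Figure D3:**
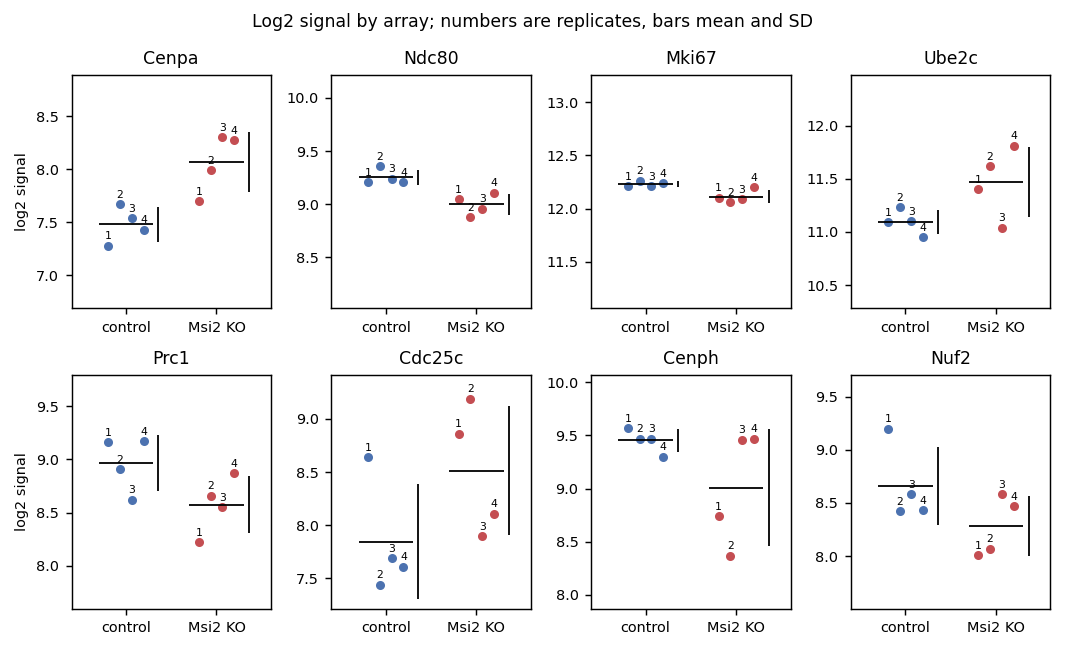
Log2 signal (vertical axis, each panel spanning 2.2 units) on each control (blue) and Msi2 KO (red) array for the 7 genes with the smallest unadjusted p and for Mki67, with the replicate number above each point, the group mean as a horizontal line and the SD as a vertical line. Groups do not overlap for Cenpa, Ndc80 and Mki67; Cenph and Nuf2 are lowest on Msi2 KO 1 and Msi2 KO 2.

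The spindle motors and microtubule proteins had 5 of 10 genes higher and 5 lower (median -0.02). All 10 had a larger SD in KO than in control, against 61.5% of all genes. So did all 7 condensin and chromosome-surface genes and all 4 genes of the chromosomal passenger complex. Kif11, the motor that pushes spindle poles apart, differed by -0.16 ± 0.15 (SE), and Tpx2, which activates Aurka on the spindle, by -0.18 ± 0.18. Kif20a (0.23) and Kif23 (-0.38), both motors of the central spindle, pointed in opposite directions. The chromosome-arm motors Kif22 and Kif4 were at 0.02 and 0.18, the microtubule depolymerase Kif2c at 0.05, the spindle protein Nusap1 at -0.06 and Hmmr, a protein of spindle poles, at 0.06.

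Prc1, which bundles the microtubules of the central spindle, had the smallest p of this group. It read 9.16, 8.91, 8.62 and 9.17 on control 1 to control 4 and 8.22, 8.66, 8.55 and 8.87 on KO 1 to KO 4. The groups overlapped on 2 KO arrays, and the difference was -0.39 ± 0.18 (SE; limma adjusted p 0.468, two-sided exact permutation p 0.114). Its second kept probe set gave -0.23, so both stood on the same side. Kif23, which works beside Prc1 at the central spindle, was at 8.81, 9.30, 8.80 and 9.92 on KO 1 to KO 4 against 9.29 to 9.80 in controls, so KO 4 was above every control and KO 1 and KO 3 below.

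The 3 cytokinesis genes again differed in sign. Anln, the actin-binding anillin of the contractile ring, was at 0.22 ± 0.16 (SE). Ect2, the exchange factor that activates RhoA at the cell equator, was at -0.28 ± 0.16. Racgap1, a subunit of centralspindlin that binds Ect2, was at 0.06 ± 0.16.

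The condensin and chromosome-surface genes had 3 higher and 4 lower (median -0.06). The condensin core subunits Smc2 and Smc4 differed by 0.05 and -0.20, and the condensin I subunits Ncapd2, Ncapg and Ncaph by 0.29, -0.06 and 0.03. Top2a, the topoisomerase that untangles sister chromatids, differed by -0.17 with an interval from -0.45 to 0.10.

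Mki67, which encodes the proliferation antigen Ki-67 that coats mitotic chromosomes, had the tightest values of the 47 genes in the controls. It read 12.21, 12.26, 12.21 and 12.24 on control 1 to control 4 and 12.10, 12.06, 12.09 and 12.20 on KO 1 to KO 4. All 4 KO arrays lay below all 4 controls, with KO 4 next to the lowest control. The difference was -0.12, or 1.09-fold lower, with an interval from -0.37 to 0.13 (limma adjusted p 0.728; two-sided exact permutation p 0.0286).

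**Figure D4:**
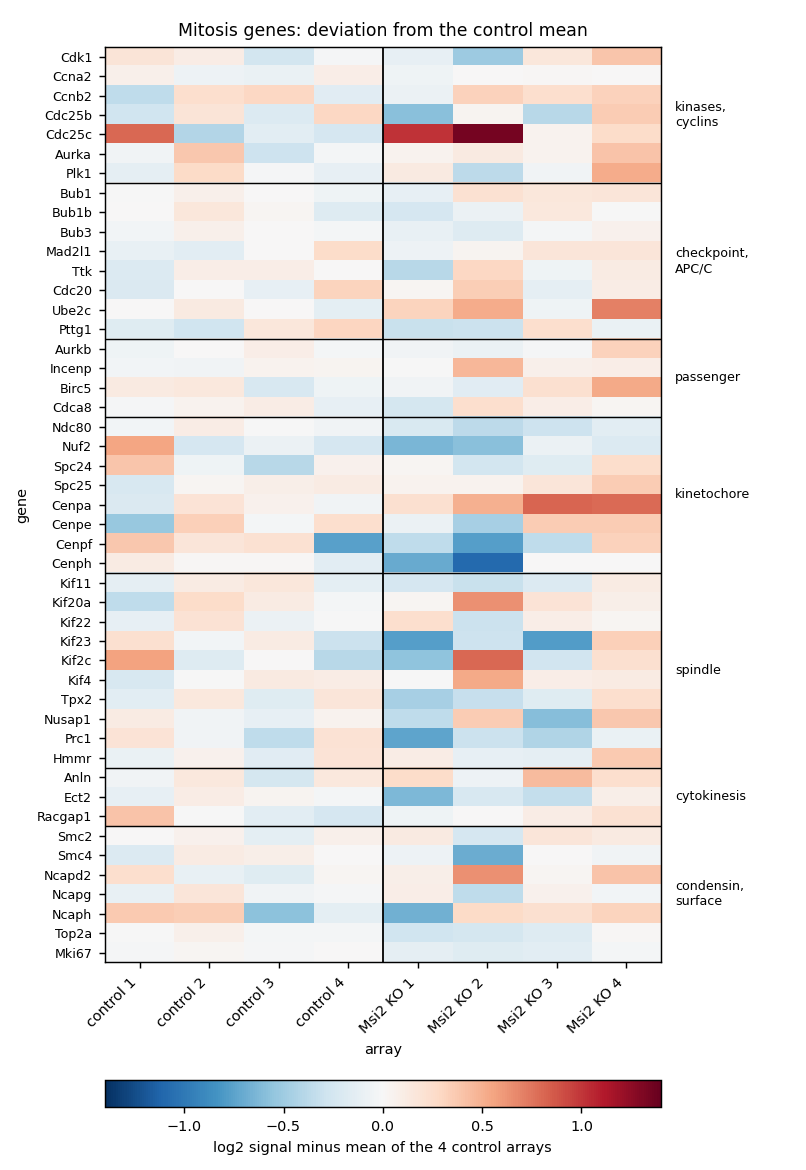
Deviation of each of the 47 mitosis genes (rows, by role) on each array (columns) from that gene's mean over the 4 control arrays, as a colour from blue (lower) to red (higher) in log2 units. KO 4 is mostly red, KO 1 and KO 2 hold most of the darkest blue cells, and KO 3 is pale in most rows.

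Read array by array, the 4 KO mice did not share a direction. The mean deviation of the 47 genes from the control mean was -0.14, -0.02, -0.01 and 0.20 on KO 1 to KO 4, and -0.05 to 0.06 in the controls. KO 4 was the highest of the 8 arrays for 13 of the 47 genes (27.7%), against 8.26% of all genes, and the lowest for 0. KO 1 or KO 2 was the lowest for 26 genes (55.3%), against 27.9% of all genes. KO 2 was also the highest for 10 genes (21.3%), against 12.7% of all genes, so it stood at both ends. KO 4 also had an erythroid marker mean of 1.06 and a mean of 1.01 over 3 megakaryocyte markers, whose part in this was not tested. Without KO 4 the 47 genes had 19 higher and 28 lower and a median of -0.05, the largest move of the median when 1 array was left out. The median was also slightly below 0 without control 4 (-0.01), with the probe sets of a gene averaged (-0.02), without genes below the median level (-0.01) and without shared probe sets (-0.01). KO SDs were larger than control SDs for 36 of the 47 (76.6%), against 61.5% of all genes.

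KO 3, the array farthest from the others over all genes, was unremarkable for mitosis genes. It was the highest or lowest of the 8 arrays for 6 of the 47 (12.8%), against 43.6% of all genes. Without it 25 genes were higher and 22 lower, as with it, and the median was 0.01. The same array stood out in a list of 38 genes of S phase, which copy DNA before mitosis. That list had a mean deviation of 0.02, 0.12, 0.37 and 0.05 on KO 1 to KO 4 and -0.11 to 0.04 in controls, and KO 3 was the highest array for 23 of the 38 genes (60.5%), against 23.1% of all genes. For the mitosis genes it was the highest for 4 of 47 (8.51%). The 38 S phase genes had 25 higher and 13 lower, with a median of 0.08. 0 of them passed limma, while 6 had an unadjusted p under 0.05, all higher (15.8% against 5.74% of all genes), and 5 had KO arrays above all controls (13.2% against 3.63%).

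**Figure D5:**
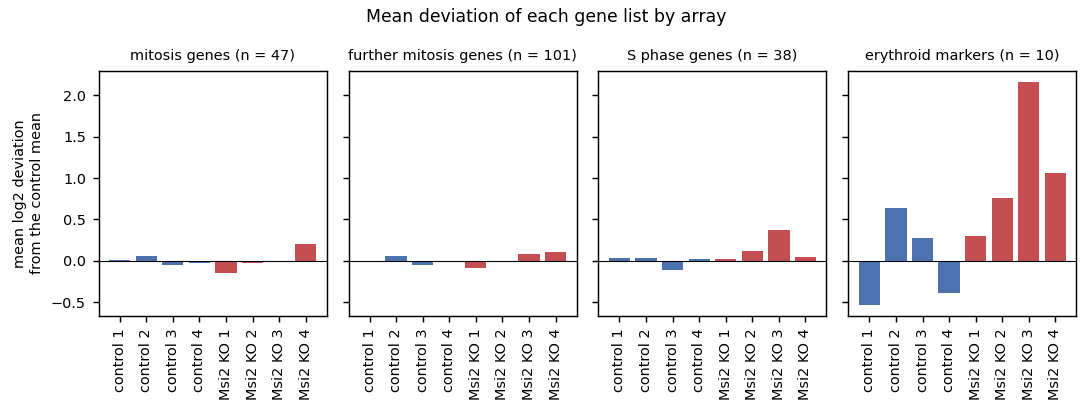
Mean log2 deviation from the control mean (vertical axis, shared by the 4 panels) on each array for the mitosis genes, the further mitosis genes, the S phase genes and the erythroid markers; blue bars are control and red bars Msi2 KO arrays. Mitosis genes stay between -0.14 and 0.20, while erythroid markers reach 2.16 on Msi2 KO 3.

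KO 1 and KO 2 differ from KO 3 and KO 4 in Xist level and also in the Msi2 signal left, and these cannot be told apart here. Among the arrays with high Xist (3 control and 2 KO), 32 of the 47 genes were higher and 15 lower in KO (median 0.07), where 52% of all genes were higher. In this smaller set the groups did not overlap for 14 genes (29.8%), against 33.3% of all genes, 12 of them above and 2 below (17.6% and 15.7% of all genes). Among the arrays with low Xist (1 control and 2 KO), 21 were higher and 26 lower (median -0.05). No share over all genes is given for this set, so this split is not read as a result about the mitosis genes. The widest gaps between both settings were at Nuf2 (0.05 with high and -1.16 with low Xist), Cenph (0.05 and -1.01) and Cenpf (0.11 and -0.95), where the second value rests on a single control. A test of this difference (limma, group by Xist interaction, chosen after the values were seen) passed for 0 of the 47 genes, with a lowest adjusted p of 0.439 at Nuf2, and for 0 of all genes. At an unadjusted p under 0.05 it gave 4 of the 47, Nuf2, Cenph, Racgap1 and Cdk1, against 8.82% of all genes.

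Probe sets of the same gene often disagreed in sign. The 47 genes had 98 kept probe sets, and 32 genes had more than 1. In 11 of these 32 genes all probe sets pointed the same way, Cenpa, Prc1, Tpx2 and Kif2c among them. 0 of the 98 passed limma, against 0% of all 24404 probe sets, and 3 of the 98 had an unadjusted p under 0.05, against 9.72% of all. These were 1450842_a_at of Cenpa, 1425815_a_at of Hmmr and 1428105_at of Tpx2. Hmmr had the widest spread, from -0.54 (1429871_at) to 0.69 (1425815_a_at, adjusted p 0.411), while the brightest probe set stood at 0.06. For Tpx2 both probe sets were lower, by -0.18 and -0.40.

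A list of 106 further mitosis genes, of which 101 were measured, gave the same picture: 55 were higher and 46 lower, with a median of 0.04. 0 of the 101 passed limma. Of them 4 (3.96%, 2 in each direction) had an unadjusted p under 0.05, against 11.4% of all genes, and 7 (6.93%) had groups that did not overlap, against 7.11%. The subunits and partners of the anaphase-promoting complex had 11 of 18 higher, the further kinetochore and centromere genes 17 of 28, cohesin and condensin II genes 5 of 14, further spindle genes 10 of 19, genes of entry control 10 of 15 and further cytokinesis genes 2 of 7. The smallest p was that of Ensa, an inhibitor of the phosphatase that opposes Cdk1. It read 10.32, 10.25, 10.35 and 10.35 on control 1 to control 4 and 10.04, 9.35, 9.46 and 9.91 on KO 1 to KO 4. All KO arrays were below all controls, at a difference of -0.63 ± 0.17 (SE; limma adjusted p 0.287). Next came Ncaph2, of condensin II (0.38 ± 0.13, SE), Kif3b, a kinesin (-0.42 ± 0.17), and 2 subunits of the anaphase-promoting complex, Anapc16 (0.38 ± 0.16) and Cdc27 (-0.30 ± 0.13), with adjusted p from 0.376 to 0.440.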

How the data were processed

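The authors deposited log2 signals per probe set; the submitters' processing notes name RMA without a version. Among 45101 probe sets, 20664 (45.8%) held 0 on all 8 arrays and were left out, since they carry no measurement; 0 were at 0 on some arrays only. No source used here gives the step that set them to 0, and leaving them out was part of the planned main test. Names came from the array's annotation, updated through gene IDs with a RefSeq table of GRCm38.p6: 34958 probe sets had 1 name, 932 several and 9211 none. Probe sets with several names or none were left out, and 1 probe set stood for each of 10720 genes.

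Groups were compared on all genes with limma 3.58.1 in R 4.3.3 (lmFit, eBayes, two-sided), with Benjamini-Hochberg adjustment over all genes and a threshold of 0.05. All 70 assignments of arrays to groups entered the exact permutation tests. Nothing beyond separate mice is stated about the replicates. Alternatives were repeated quantile normalization, median centring, a filter on dim genes, other probe set choices, a trended robust prior, array weights, a replicate block, Xist level, probe sets at 0 kept in the adjustment, a fold change of at least 1.5 and leaving out each array. The fit was tested on simulated data. Members and lists were chosen with earlier results of these data known. The group by Xist interaction was added after the values were seen. The rule named every member, and of the further mitosis genes the 5 with the smallest p. The number of arrays limits the precision.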

Additional observations from a re-analysis of the deposited data

Results flagged for a closer look

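Among 94 groups of 4 arrays (47 genes, control and KO), 5 held an outlying array. The rule was a gap to the nearest other array, as a share of the group's range, past the 95% critical value. That share was 0.852 to 0.907 in these 5, and chance alone flags about 1 in 20 groups. All 5 were in KO. Bub1 read 7.45 on KO 1, with 7.72 to 7.76 on the other KO arrays. Ncaph read 6.92 on KO 1, with 7.81 to 7.90 on the others, and control 3 lay near it at 7.02. Smc2 (9.45) and Smc4 (11.47), the pair that forms the condensin core, were both low on KO 2, with 9.80 to 9.85 and 12.11 to 12.18 on the others. Aurkb read 9.23 on KO 4, with 8.84 to 8.89 on the others. None of the 5 was on KO 3.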

How the results depend on the processing

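Under all 19 alternatives 0 of the mitosis genes and 0 of the further mitosis genes passed the limma threshold, and the lowest adjusted p of a mitosis gene ran from 0.136 to 0.507. Cenpa did not hold the lowest in each. Without KO 3 it was Ube2c (0.334), without KO 4 Kif23 (0.372), without control 1 Cdc25c (0.405) and with averaged probe sets Ndc80 (0.418). The difference of Cenpa ran from 0.31 to 0.74. Over all genes 5 passed with Xist as a covariate, and 0 to 1 with 1 array left out (1 without KO 1). The genes whose groups did not overlap numbered 14 within the arrays of high Xist (29.8%, against 33.3% of all genes). With 1 array left out they numbered 4 to 7 (5 without control 1, KO 1 or KO 2 and 7 without KO 4). Fewer arrays make this easier. No share over all genes is given for those settings, so these counts are not read as a result about the mitosis genes. The median difference ran from -0.05 to 0.04 with 1 array left out, at -0.05 without KO 4. With all probe sets of a gene averaged, 20 were higher and 27 lower; without genes below the median level 40 remained in the fit, 19 of them higher. The replicate numbers gave no sign of pairing (correlations of same-numbered arrays 0.14, -0.17, 0.08 and -0.02); with the replicate block 0 genes passed, 25 were higher, and the lowest adjusted p was 0.365.

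Some genes changed sign, and the cause was not tested. With Xist as a covariate these were Cdk1 0.04, Ttk 0.02 and Kif2c -0.05; with array weights Cdk1 0.07, Ccna2 0.01, Ttk 0.00, Spc24 0.10, Cenpe -0.04, Kif22 -0.05 and Nusap1 0.14. Within the arrays of high Xist they were Cdk1 0.34, Ccna2 0.03, Bub1b 0.07, Cdc20 -0.08, Pttg1 0.02, Nuf2 0.05, Spc24 0.17, Cenpf 0.11 and Cenph 0.05. With the mean of all probe sets they were Ccna2 0.05, Bub1 -0.21, Bub1b 0.06, Bub3 0.12, Cdca8 -0.07, Spc25 -0.09, Cenpe -0.06, Kif22 0.00, Anln -0.02, Racgap1 -0.04, Smc2 -0.02, Ncaph 0.00 and Top2a 0.04. Without shared probe sets, where Aurkb had none left, they were Cdc25c -0.20, Bub3 0.20, Pttg1 0.17, Incenp -0.03, Cdca8 -0.34 and Kif22 -0.05. With 1 array left out, values ran from -0.15 to 0.15 for Cdk1, -0.04 to 0.02 for Ccna2, -0.31 to 0.00 for Cdc25b, -0.10 to 0.20 for Plk1, -0.10 to 0.02 for Bub1b, -0.11 to 0.11 for Ttk, -0.05 to 0.08 for Aurkb, -0.04 to 0.12 for Cdca8, -0.17 to 0.09 for Spc24, -0.14 to 0.21 for Cenpe, -0.06 to 0.12 for Kif22, -0.20 to 0.25 for Kif2c, -0.21 to 0.12 for Nusap1, -0.05 to 0.12 for Hmmr, -0.02 to 0.19 for Racgap1, -0.11 to 0.04 for Ncapg and -0.16 to 0.27 for Ncaph.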
